A study of Mus musculus with 9 samples.

Results

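Basement membranes are thin sheets of extracellular matrix built on a network of type IV collagen and a network of laminin, with heparan sulfate proteoglycans bound to both. In the liver sinusoid the matrix beside the stellate cell is sparse, and repeated injury is known to thicken it. The 7 genes described here encode its collagens and its secreted heparan sulfate proteoglycans: Col4a1, Col4a2 and Col4a5 (chains of type IV collagen), Col15a1 and Col18a1 (the multiplexins, basement membrane zone collagens that carry glycosaminoglycan chains and release restin and endostatin from their ends), Hspg2 (perlecan) and Agrn (agrin). They were taken by gene name from the 35024 rows of the deposited table, where each had 1 row, and all 7 passed the filter on low values. They were grouped by protein family, by a rule that takes no measured value.

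Hepatic stellate cells, the retinoid-storing pericytes of the liver, were sorted by their retinoid autofluorescence from mice given carbon tetrachloride (CCl4, which kills hepatocytes) 6 times at intervals of 3 days, and were lysed straight after sorting, 2 days past the last dose. All mice carried floxed Yap1 on a C57BL/6J background. The control libraries (LYT004, LYT005, LYT014, LYT015 and LYT017) came from mice without Cre, and the YAP-deleted libraries (LYT006, LYT008, LYT013 and LYT016) from mice that also carried LratCre, a Cre recombinase under the promoter of the stellate cell gene Lrat. YAP, the product of Yap1, is a coactivator of TEAD transcription factors. The age and sex of the mice are not given in the sources used here. No library came from Cre-carrying mice without floxed Yap1, so Cre itself and the loss of Yap1 cannot be told apart. Whether each library is 1 mouse is not given either, so p-values measure the spread between libraries.

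Between 14052502 and 31816055 counts per library could be recovered from the deposited values, the most in LYT013. Normalised counts below are these counts divided by the size factor of the library. Yap1, the deleted gene, went against the label in 2 libraries. LYT014, labelled control, had 618 normalised Yap1 counts, as few as the 642, 648 and 645 of LYT006, LYT008 and LYT016. LYT013, labelled YAP-deleted, had 2530, near the 2902, 2915, 3653 and 3551 of LYT004, LYT005, LYT015 and LYT017. Each comparison is therefore given for the 9 libraries as labelled and for the 7 without the libraries labelled LYT013 and LYT014. Stellate cell markers were present in every library, with Lrat at 35209 to 69555 normalised counts. LYT013 also stood apart by transcript length: its genes with transcripts over 5 kb lay a median of 0.38 log2 units below the mean of the 9 libraries, against −0.05 to 0.12 in the other 8. All 7 genes have such long transcripts, from 5172 bases (Col15a1) to 14187 (Hspg2).

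Col4a1 and Col4a2 lie head to head on chromosome 8 of GRCm38, Col4a1 on the minus strand at 11198423 to 11312826 and Col4a2 on the plus strand at 11312805 to 11449287. Their annotated 5' ends share 22 bases, over which reads of the genes could be separated only by strand. Col4a5 lies on chromosome X at 141475385 to 141689234 (plus strand), with 1308 bases between its start and that of Col4a6. On chromosome 4 are Col15a1 at 47208161 to 47313167 (plus), Hspg2 at 137468769 to 137570630 (plus) and Agrn at 156165290 to 156197488 (minus), and Col18a1 is on chromosome 10 at 77052178 to 77166548 (minus). The longest protein-coding transcripts have 52, 48, 53, 40, 41, 97 and 38 exons for Col4a1, Col4a2, Col4a5, Col15a1, Col18a1, Hspg2 and Agrn. The table has 1 row per gene name, so isoforms from the 2 annotated starts of Col18a1 or of Agrn are not separated.

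The start regions of the 4 genes that fell into pairs of like pattern across the libraries are shown from RefSeq on GRCm38.p6, 250 bases before to 50 after the start, 5′ to 3′ on the strand of the gene. Capitals mark matches, on either strand, to the GC box (searched as GGGCGG) and to the CCAAT box (searched by those 5 letters), motifs that did not overlap in these windows. The windows are chr8:11312777-11313076 (minus) for Col4a1, chr8:11312555-11312854 (plus) for Col4a2, chrX:141475169-141475468 (plus) for Col4a5 and chr4:47207762-47208061 (plus) for Col15a1. The RefSeq start of Col15a1 lies upstream of the gene start given above (47208161), which its window does not reach. Matches and base content of Col15a1 are therefore those of sequence upstream of that start.
Col4a1: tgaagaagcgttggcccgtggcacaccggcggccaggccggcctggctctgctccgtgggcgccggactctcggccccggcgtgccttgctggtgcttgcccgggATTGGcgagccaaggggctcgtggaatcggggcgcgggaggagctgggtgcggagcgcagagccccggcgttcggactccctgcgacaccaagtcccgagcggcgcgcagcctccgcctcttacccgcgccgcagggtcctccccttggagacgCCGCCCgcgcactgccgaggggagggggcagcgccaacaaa
Col4a2: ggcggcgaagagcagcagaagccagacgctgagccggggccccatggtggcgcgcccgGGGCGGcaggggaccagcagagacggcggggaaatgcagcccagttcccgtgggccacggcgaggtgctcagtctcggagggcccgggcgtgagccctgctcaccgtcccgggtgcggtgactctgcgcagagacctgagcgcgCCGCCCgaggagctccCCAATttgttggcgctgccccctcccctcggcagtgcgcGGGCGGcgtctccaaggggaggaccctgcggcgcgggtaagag
Col4a5: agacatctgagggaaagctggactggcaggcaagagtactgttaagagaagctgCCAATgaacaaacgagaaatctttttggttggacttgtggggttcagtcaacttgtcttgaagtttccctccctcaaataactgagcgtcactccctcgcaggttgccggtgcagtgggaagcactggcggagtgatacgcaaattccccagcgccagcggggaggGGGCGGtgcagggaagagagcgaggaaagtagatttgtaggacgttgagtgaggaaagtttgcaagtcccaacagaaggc
Col15a1: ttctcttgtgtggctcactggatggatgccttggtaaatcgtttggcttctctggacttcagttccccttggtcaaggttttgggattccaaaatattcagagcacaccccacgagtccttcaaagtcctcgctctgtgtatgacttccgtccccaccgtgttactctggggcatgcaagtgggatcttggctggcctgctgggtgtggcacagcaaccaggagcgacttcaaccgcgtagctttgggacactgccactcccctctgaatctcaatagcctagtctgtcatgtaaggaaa
The Col4a1 and Col4a2 windows share 78 bases, read on opposite strands, so a match there is counted in both. Their G and C content was 74.0% and 73.7%, against 52.7% for Col4a5 and 52.3% for Col15a1. A GC box was matched 1 time in the Col4a1 window, 3 times in that of Col4a2, 1 time in that of Col4a5 and 0 times in that of Col15a1. A CCAAT box was matched 1 time in each of the first 3 windows and 0 times in that of Col15a1. Over all 32851 windows of this length, 35.7% held a GC box and 37.4% a CCAAT box. GGAATG, the core of the site that TEAD factors bind, was in none of these 4 windows, nor in those of Hspg2 and Agrn, and matched 2 times at the downstream start of Col18a1 (chromosome 10, 77113656 to 77113955, minus strand). It occurred in 14.7% of all windows.

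Per kilobase of transcript, the chains of the major collagen IV network were by far the most abundant of the 7, and their order was nearly the same in every library. Col4a1 ranged from 10747 to 20606 normalised counts per kb and Col4a2 from 6821 to 12818, and Col4a1 ranked above Col4a2 and Col4a2 above the rest in all 9 libraries. Hspg2 followed with 596 to 2116 and Agrn with 520 to 835, in that order in all 9. Col15a1 (37.0 to 712) came next in 8 libraries and lay below Col18a1 in LYT013. Col4a5 (18.8 to 317) and Col18a1 (43.7 to 212) changed places between libraries. Of the counts per kb of the 3 collagen IV genes, Col4a1 made up 60.1% to 63.2%, Col4a2 36.2% to 38.8% and Col4a5 0.0961% to 1.12%. The other chains were scarcer, with Col4a3 at 1.20 to 20.8, Col4a4 at 7.18 to 45.9 and Col4a6 at 5.98 to 77.8 normalised counts (not per length), each lowest in LYT013. By count, Col4a1 was between the 7th and the 26th most abundant gene of a library, and together the 7 genes took 0.739% to 1.39% of the counts.

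**Figure D1:**
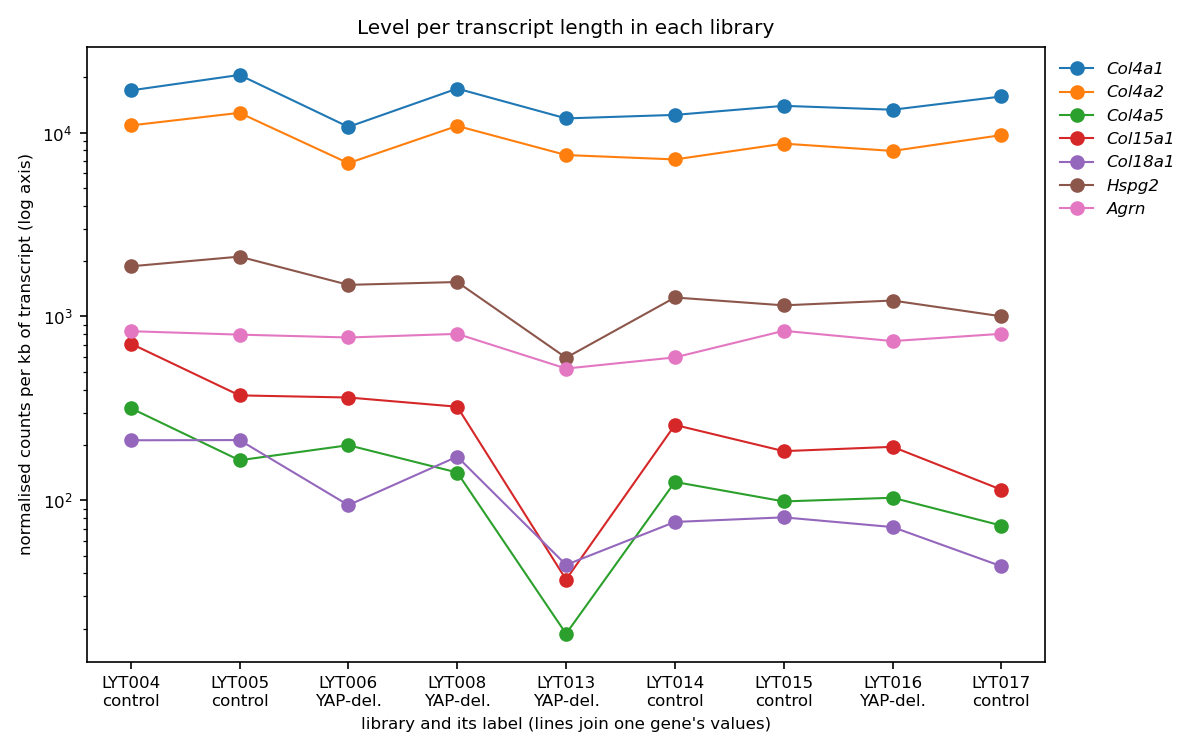
Normalised counts per kilobase of the longest protein-coding transcript (log axis) for the 7 genes in each of the 9 libraries, named with their label on the x axis; lines join the values of 1 gene. Col4a1 and Col4a2 run in parallel at the top of every library, and Col4a5 and Col15a1 drop to 18.8 and 37.0 in LYT013.

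None of the 7 genes differed between the labelled groups beyond the spread of the libraries. With all 9 libraries, each of the 7 had a negative difference (YAP-deleted minus control), from −0.14 ± 0.15 log2 units for Agrn to −0.59 ± 0.62 for Col15a1 (SE, 4 against 5 libraries), and limma adjusted p-values ran from 0.727 to 0.844. The median over the 7 was −0.27, beside −0.0046 over all 17199 genes tested, of which 50.9% were negative. That background holds genes of all lengths. Genes with transcripts over 5 kb, as all 7 have, deviated by a median of 0.01 to 0.12 in the control libraries. In LYT006, LYT008, LYT013 and LYT016 they deviated by 0.01, −0.05, −0.38 and 0.07. With the dependence on transcript length and GC content subtracted, all 7 were still negative and their median was −0.20. Limma called 0 of the 7, against a background of 0% of all genes tested, 0% higher and 0% lower. At an unadjusted p under 0.05 there were 0 of the 7 and 1242 of all genes (7.22%). With voom weights on the recovered counts, limma called 0 genes, and 0 of the 7 and 1349 of all genes had an unadjusted p under 0.05. The labelled groups overlapped for each of the 7, where 2.84% of all genes did not overlap. Without LYT013, the differences of Col4a5 and Col15a1 were 0.05 and 0.06, those of Col18a1, Hspg2 and Agrn 0.00, −0.01 and 0.00, and those of Col4a1 and Col4a2 −0.21 each. Library codes fall into a low and a high range, whose meaning is not given. Within codes 4 to 8 (2 libraries against 2) the 7 differences lay between −0.69 (Col18a1) and −0.05 (Agrn), with limma adjusted p-values of 0.464 to 0.900. Within codes 13 to 17 (2 against 3) they lay between −0.93 (Col4a5) and −0.13 (Col4a2), with limma adjusted p-values of 0.706 to 0.902.

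Among the 7 libraries whose Yap1 level followed the label, Col4a1 and Col4a2 kept differences of −0.30 ± 0.27 and −0.31 ± 0.24 log2 units (SE, 3 against 4 libraries). The differences of Col4a5 and Col15a1 were 0.03 ± 0.43 and 0.04 ± 0.53, and those of Col18a1, Hspg2 and Agrn were −0.11 ± 0.51, −0.05 ± 0.27 and −0.09 ± 0.08. Limma adjusted p-values ran from 0.886 to 0.995. The median was −0.09, beside −0.01 over all 17292 genes tested. None of the 7 genes was called, against 12 of all genes or 0.0694% (0.0173% higher, 0.052% lower), and 0 of the 7 but 1091 of all genes (6.31%) had an unadjusted p under 0.05. With voom weights 0 of the 7 and 8 of all genes were called. The groups overlapped for each of the 7, where 7.33% of all genes did not. The 95% intervals were wide for the variable genes, −1.17 to 1.25 for Col15a1, −0.96 to 1.01 for Col4a5 and −1.27 to 1.06 for Col18a1. They were narrower for Agrn (−0.27 to 0.10) and Col4a2 (−0.85 to 0.22).

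**Figure D2:**
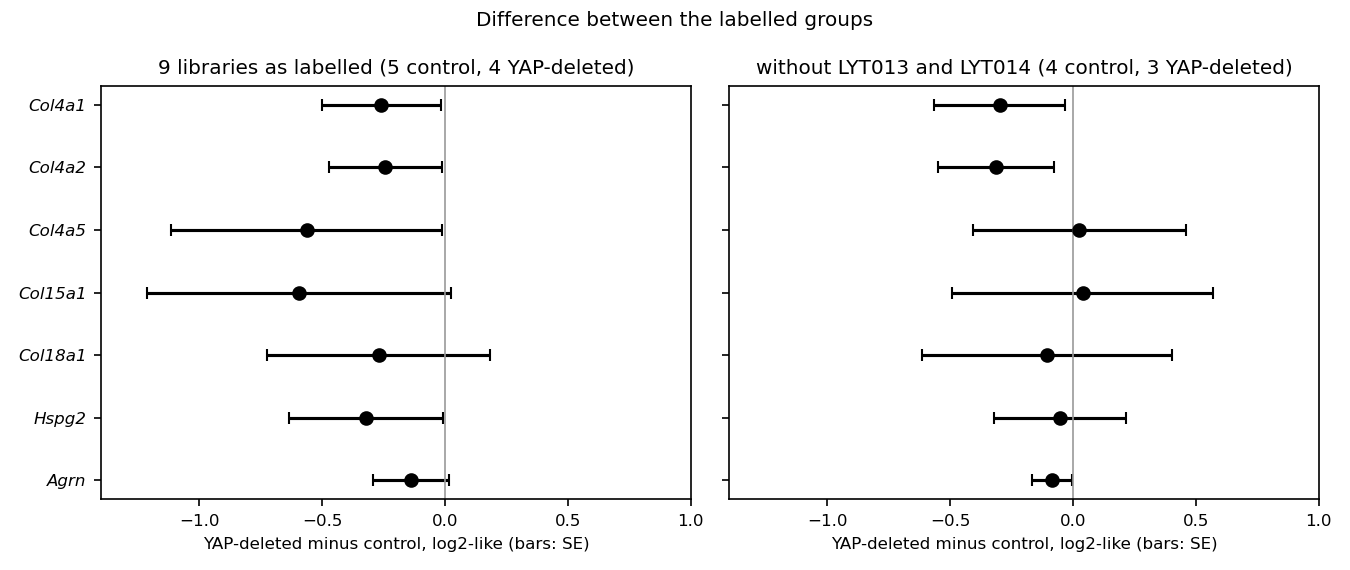
Difference between the labelled groups (YAP-deleted minus control, log2-like scale) for the 7 genes with 9 libraries (left) and without LYT013 and LYT014 (right); points are limma estimates and bars their SE. The estimates of Col4a5 and Col15a1 move from −0.56 and −0.59 to 0.03 and 0.04.

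Col4a1 and Col4a2, whose chains assemble together into the collagen IV network of nearly all basement membranes, varied less than 2-fold across the libraries. Col4a1 had 112271, 136312, 82632, 92563 and 104094 normalised counts in control LYT004, LYT005, LYT014, LYT015 and LYT017. In YAP-deleted LYT006, LYT008, LYT013 and LYT016 it had 71090, 114879, 79069 and 88156. LYT006 was the lowest library and LYT005 the highest, and YAP-deleted LYT008 lay above 4 of the 5 control libraries. Col4a2 had 70585, 82674, 46108, 56211 and 62542 in the same control libraries and 43993, 70170, 48721 and 51288 in the YAP-deleted ones. LYT006 was again the lowest, LYT005 the highest, and control LYT014 fell among the YAP-deleted libraries. The group means of Col4a1 were 105574 ± 20539 and 88298 ± 19043 (SD, n = 5 and 4), and those of Col4a2 63624 ± 13913 and 53543 ± 11489.

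Col4a5, whose chain is found in the collagen IV of kidney, lung and smooth muscle basement membranes and is altered in Alport syndrome, spread 16.9-fold. It had 2073, 1078, 822, 644 and 475 normalised counts in the 5 control libraries in that order and 1302, 925, 123 and 674 in the YAP-deleted ones. LYT004 was the highest and LYT013 far below the rest, while the remaining YAP-deleted libraries sat inside the control range. Without LYT013 the spread was 4.36-fold. Col15a1, which links basement membrane to the fibrils beneath it, spread 19.2-fold, and 6.25-fold without LYT013. Its counts were 3682, 1923, 1328, 956 and 590 in the control libraries and 1873, 1669, 191 and 1009 in the YAP-deleted ones. The same pair of libraries held the extremes, LYT004 at the top and LYT013 at the bottom. LYT013 was also the library with fewer counts from long transcripts. After the dependence on transcript length and GC content was subtracted library by library (a loess curve), its Col15a1 value was 8.16 against 9.37 to 11.79 in the other 8 (7.96 against 9.34 to 11.87 as deposited), and its Col4a5 value 7.85 against 9.03 to 10.94 (7.49 against 9.07 to 11.06). It thus stayed the lowest for both.

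Col18a1, the source of the angiogenesis inhibitor endostatin, was high in 3 libraries and low in 6. It had 1186 and 1188 normalised counts in control LYT004 and LYT005 and 966 in YAP-deleted LYT008. The other control libraries, LYT014, LYT015 and LYT017, had 426, 451 and 244, and the other YAP-deleted libraries, LYT006, LYT013 and LYT016, had 526, 249 and 400. Both labelled groups thus held libraries at either level. The lowest of the 3 high libraries had 966 and the highest of the rest 526. The 3 high libraries were also the 3 with the highest cycling markers, and all 3 have low library codes, as given further on.

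Hspg2 encodes perlecan, the large proteoglycan that bridges laminin, nidogen and collagen IV and holds growth factors on its heparan sulfate chains. It had 26575, 30016, 17986, 16299 and 14204 normalised counts in the control libraries, in the same order, and 21072, 21834, 8457 and 17313 in the YAP-deleted ones. LYT013 was below every other library, and the remaining YAP-deleted libraries lay inside the control range. With the length and GC dependence subtracted, LYT013 had 13.53 against 13.79 to 14.86 in the others, and 13.06 against 13.80 to 14.88 as deposited. Agrn encodes agrin, a laminin-binding proteoglycan best known for clustering acetylcholine receptors at the nerve-muscle synapse, and it was the steadiest of the 7. It had 6036, 5782, 4347, 6065 and 5841 normalised counts in the control libraries and 5577, 5836, 3780 and 5332 in the YAP-deleted ones. Its lowest libraries were LYT013 and LYT014, the same 2 whose Yap1 level went against the label, and the other 7 lay within 5332 to 6065. With the length and GC dependence subtracted these 2 were still the lowest, at 12.25 and 12.04 against 12.37 to 12.56. Without those 2, Agrn averaged 5931 ± 140 in control and 5582 ± 252 in YAP-deleted libraries (SD, n = 4 and 3).

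**Figure D3:**
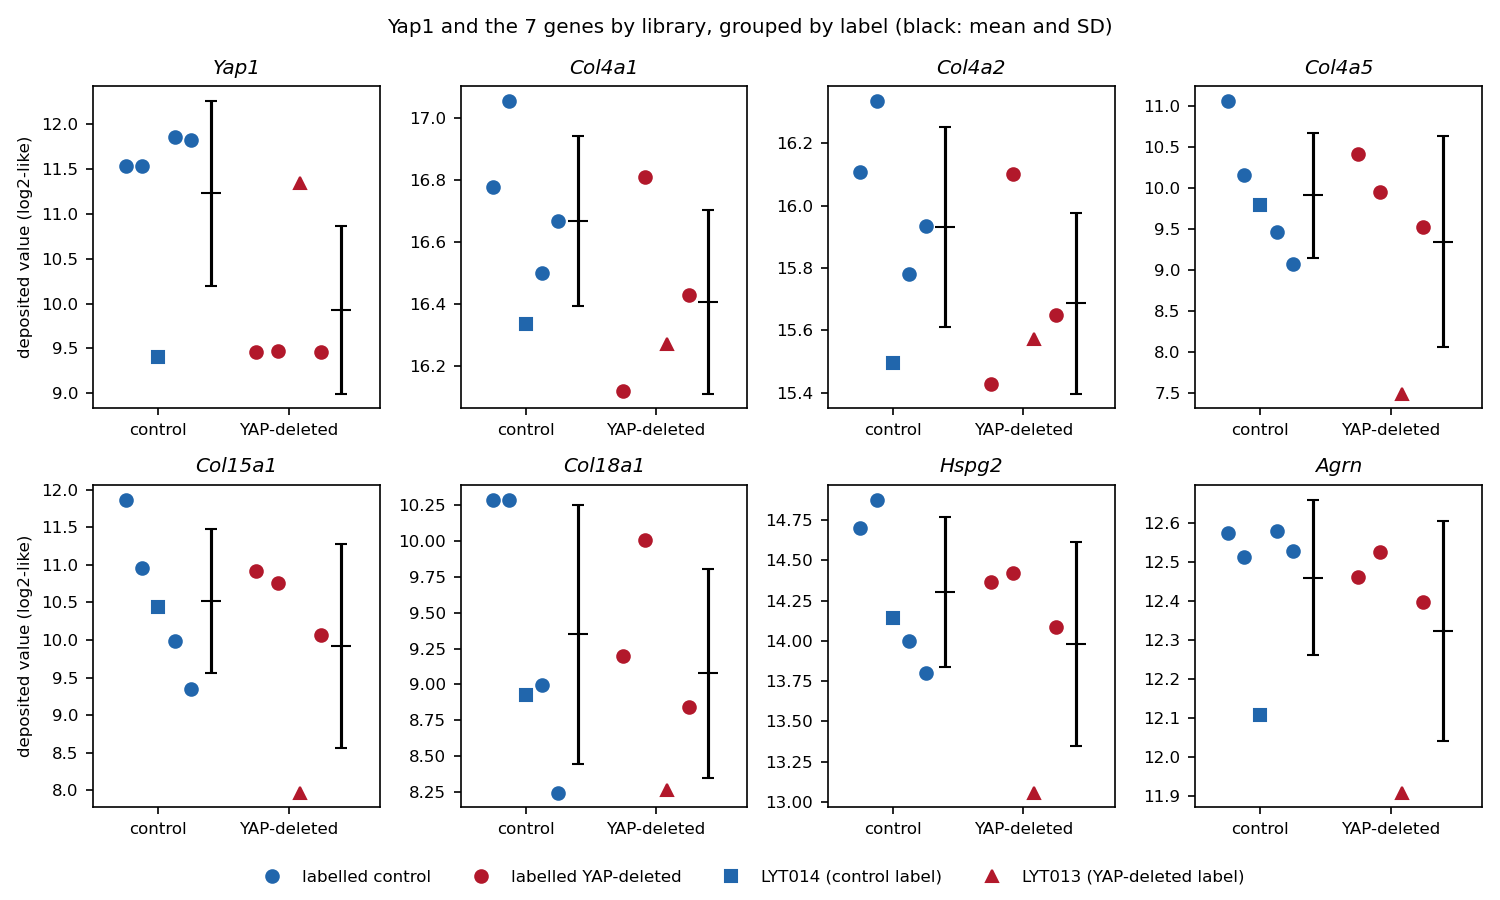
Deposited values (log2-like scale, own y axis per panel) of Yap1 and the 7 genes in each library, grouped by label; the square is LYT014, the triangle LYT013, and black bars are the mean and SD of each labelled group. The groups overlap in every panel, and LYT013 is the lowest library for Col4a5, Col15a1, Hspg2 and Agrn.

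Within a library, 2 pairs of genes kept a nearly fixed distance. The value of Col4a1 minus that of Col4a2 ran from 0.67 in LYT004 to 0.84 in LYT014, with an SD of 0.05 log2 units over the 9 libraries, against 0.30 for Col4a1 and 0.31 for Col4a2 themselves. The means of this distance were 0.74 in control and 0.72 in YAP-deleted libraries. Col4a5 minus Col15a1 ran from −0.81 in LYT008 to −0.28 in LYT017 (SD 0.18), although each gene alone had an SD of 1.00 and 1.12. LYT013 and LYT004, the extremes of both genes, had distances of −0.48 and −0.81. By contrast Col4a1 minus Col4a5, chains of the same collagen type, ran from 5.71 to 8.78 (SD 0.94). The multiplexins Col15a1 and Col18a1 had an SD of 0.62 (0.39 without LYT013), and Hspg2 and Agrn an SD of 0.41. All these values share 9 libraries and their scaling and are a description with no test.

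**Figure D4:**
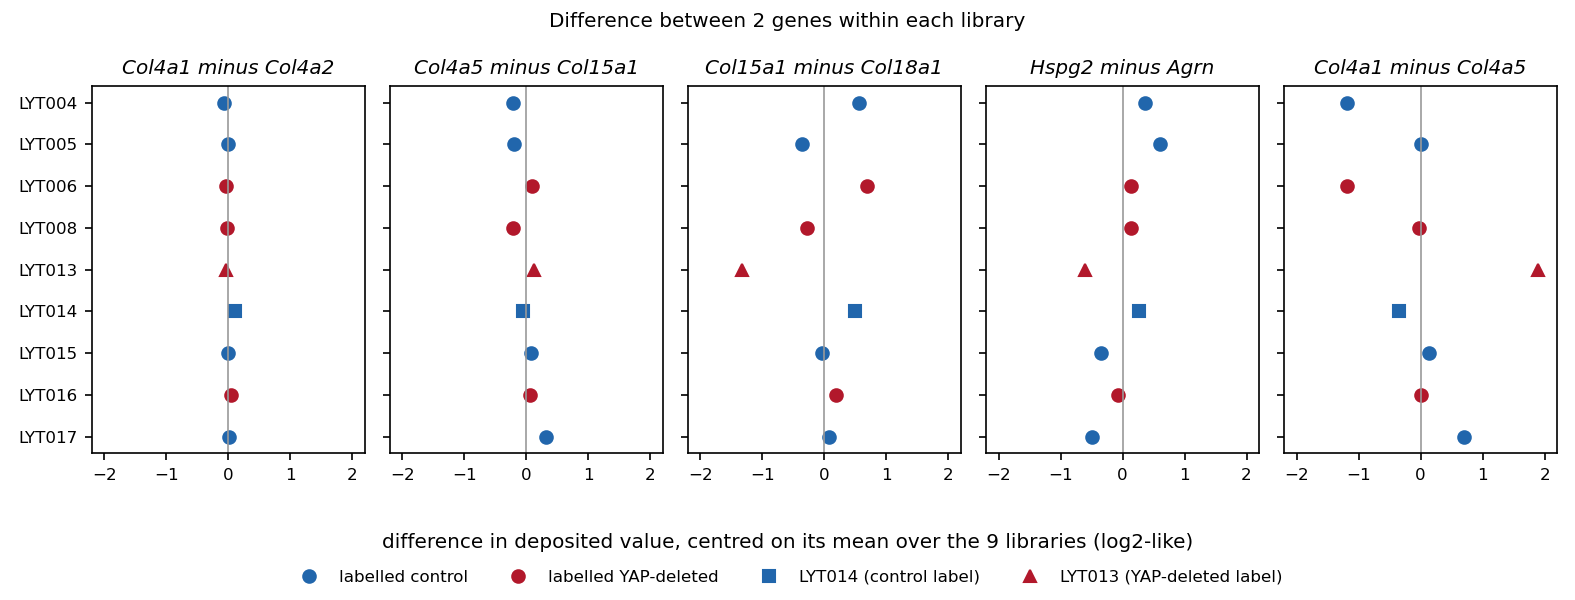
Difference in deposited value between 2 genes in each library, centred on its mean over the 9 libraries (x axis, log2-like scale; libraries on the y axis). Col4a1 minus Col4a2 (SD 0.05) and Col4a5 minus Col15a1 (SD 0.18) stay near their means, and Col4a1 minus Col4a5 (SD 0.94) spreads widely.

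Each gene was then compared with the 8600 tested genes at or above the median level, by the same SD over the 9 libraries of the distance to it. A smaller SD is a more alike pattern. The ranking reuses the values that gave the pairs and is no separate support for them. The gene closest to Col4a1 was Col4a2, and Col4a1 was the closest to Col4a2. Pkp4, a plakophilin family member (0.09 and 0.08), came second for both, then the fibrillar collagen Col5a1 for Col4a1 (0.11) and the collagen IV and laminin linker Nid2 for Col4a2 (0.10). The gene closest to Col4a5 was Col15a1, and the reverse held too. Both then had Ildr2 (0.19 and 0.20), a membrane protein of the immunoglobulin family, and Igf1 (0.29 and 0.22), the insulin-like growth factor. Without LYT013, Col15a1 ranked second for Col4a5 and Col4a5 second for Col15a1, Col4a2 stayed first for Col4a1, and Col4a1 ranked second for Col4a2. Igf1 then ranked 30th for Col4a5 and 4th for Col15a1, and Ildr2 3rd for both. Pkp4 and Col5a1 ranked 3rd and 9th for Col4a1, and Pkp4 and Nid2 1st and 4th for Col4a2.

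Col18a1 was closest to Mmp19, a matrix metalloproteinase (0.20), Tmpo, a nuclear lamina protein (0.23), and Col1a2, a chain of type I collagen (0.28). Hspg2 was closest to Ttf2 (0.14), the netrin receptor Unc5b (0.16) and 1700066M21Rik (0.18), none of which was among its 5 closest without LYT013. Agrn was closest to the protease Casp2 (0.06), Ranbp6 (0.09) and Dnajc5 (0.09). Without LYT013, Casp2 stayed first for Agrn, while Ranbp6 ranked 7th and Dnajc5 14th. Mmp19 then stayed first for Col18a1, with Tmpo 3rd and Col1a2 6th. The closest of the other 6 genes to Hspg2 depended on LYT013: it was Col18a1, ranked 905th, with that library and Col4a2, ranked 1578th, without it (Col18a1 then ranked 4994th).

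The libraries with the most RNA of cycling and activation markers also had the highest levels of 4 of the 7 genes. The 10 cycling markers, all detected, summed to 628.6 to 23194 normalised counts in control and 659 to 15969 in YAP-deleted libraries, and were highest in LYT005, LYT004 and LYT008 (23194, 16568 and 15969). These 3 were also the 3 highest libraries for Col4a1, Col4a2, Col18a1 and Hspg2, but not for Col4a5, Col15a1 or Agrn. The 8 activated stellate markers summed to 233716 to 737968 in control and 186882 to 507341 in YAP-deleted libraries, highest in the same 3. These 3 share the low range of library codes with LYT006, whose cycling markers summed to 925. Every library of that range exceeded every library of the high range for Col4a5 (lowest 925, highest 822) and Col15a1 (1669, 1328). The same held for Col18a1 (526, 451) and Hspg2 (21072, 17986), but not for Col4a1, Col4a2 or Agrn. The part of the code range in these levels was not tested. Between the labelled groups, 10 of 10 cycling markers and 7 of 8 activated stellate markers had negative differences in both fits, with medians of −0.97 and −0.50 for 9 libraries and −0.60 and −0.58 for 7, and none was called. With the cycling mean as a term in the 9-library fit, the difference of Col18a1 was 0.14 (limma adjusted p = 0.836) and those of the other 6 lay between −0.24 and −0.10. The fit without that term gave −0.27 for Col18a1. The part of the activation markers was not tested.

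Endothelial cells also make collagen IV and perlecan. All 10 liver endothelial markers were detected, with sums of 1224 to 4191 normalised counts in control and 1952 to 4124 in YAP-deleted libraries, highest in LYT014. By the mean deposited value of these markers LYT014 was also the highest (8.31), followed by LYT017 (7.70) and LYT013 (7.65). Clec4g was the largest part of the sum in every library, with 3086 of the 4124 counts in LYT013 and 1849 of the 4191 in LYT014. The 10 hepatocyte markers summed to 379 to 1193 and 661 to 1422, the 10 macrophage and Kupffer markers to 688 to 1798 and 999 to 2378, and the 7 smooth muscle markers to 13662 to 16956 and 12455 to 16644. The smooth muscle sum came almost wholly from Smtn (6310 to 8881), Myh11, Mcam and Notch3. The other smooth muscle markers, Cnn1, Actg2 and Pln, reached at most 12.8, 58.9 and 0.834. The 6 cholangiocyte markers reached at most 158 and 213, and the lymphocyte markers 30.9 and 35.9. Portal fibroblast and mesothelial markers summed to 3798 to 9619 and 3493 to 8910, lowest in LYT013. Eln was the largest part of that sum (2678 to 6686). Thy1 (25.4 to 65.0), Msln (0 to 34.9), Upk3b (0 to 32.2), Gpm6a (0 to 20.1) and Krt19 (0 to 4.17) were low. The part of all these cell types in the levels of the 7 genes was not tested. In bulk libraries, fewer cells of a type and less RNA per cell cannot be told apart.

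**Figure D5:**
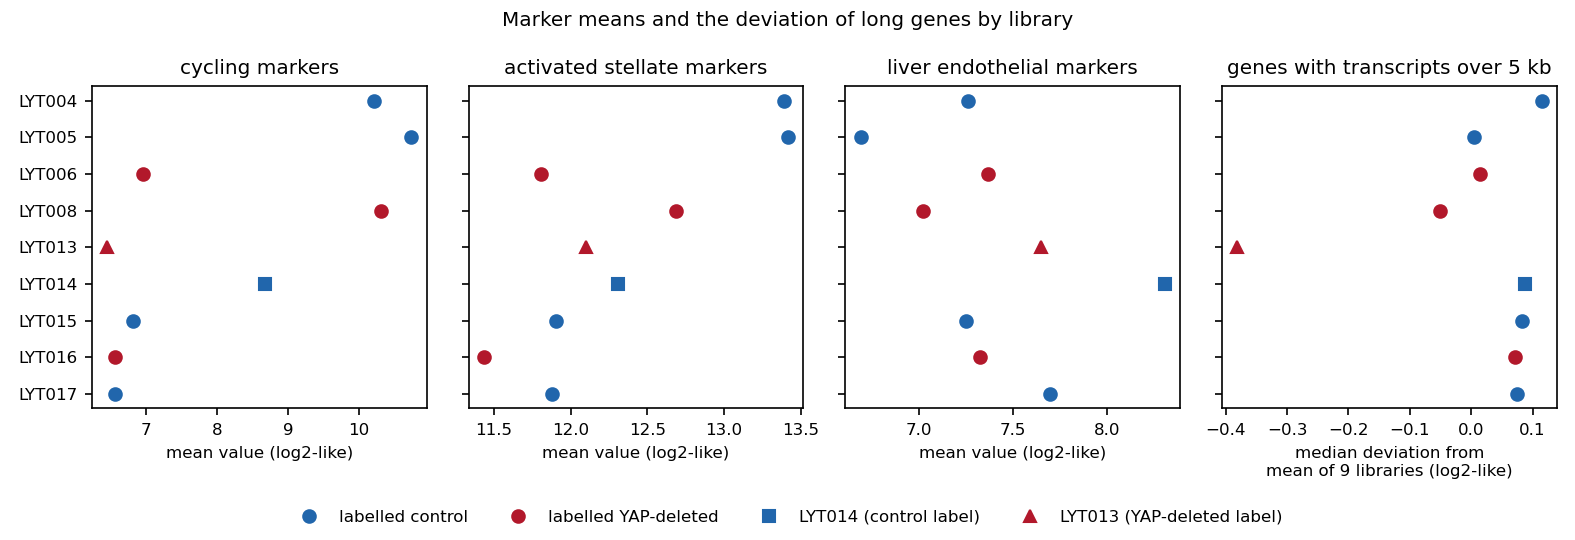
Mean deposited value of the cycling, activated stellate and liver endothelial markers, and median deviation of genes with transcripts over 5 kb from their mean over the 9 libraries (x axes, log2-like scale), for each library (y axis). LYT004, LYT005 and LYT008 are high in cycling markers, and LYT013 stands apart in the long genes at −0.38.

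Genes that work with these 7 were examined as lists in the same fits, and none was called in either, against the 0% and 0.0694% of all genes given above. Over all genes tested, 50.9% had a negative difference with 9 libraries and 51.7% with 7. The lists were not split by transcript length. Of 23 laminins, nidogens and other basement membrane glycoproteins, 19 had a negative difference with 9 libraries (median −0.16) and 19 with 7 (median −0.16). Lama2, the laminin chain of muscle and mesenchymal basement membranes, had the smallest p of these 23 in both fits. Its counts were 7702, 7606, 5757, 11164 and 12560 in the control libraries and 5007, 4603, 6048 and 7138 in the YAP-deleted ones, each in the order above. The groups overlapped through LYT014 with 9 libraries and did not overlap with 7. The difference was −0.61 ± 0.23 with 9 libraries and −0.79 ± 0.22 with 7 (limma adjusted p = 0.649 and 0.592). In the 7 libraries Lama2 passed in 3 of 21 alternatives. These had the range of library codes (−0.69, limma adjusted p = 0.0168), the cycling mean (−0.88, 0.0184) or the macrophage mean (−0.92, 0.0122) as a term. Of all genes, 25, 39 and 26 were called in those fits, against 12 without a term. In the 9 libraries Lama2 passed in none of 26 alternatives (limma adjusted p = 0.422, 0.643 and 0.600 with these terms). Lama4, a laminin chain of vascular basement membranes, differed by −0.75 ± 0.30 and −0.82 ± 0.35.

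The enzymes that build and edit heparan sulfate, the chains that perlecan and agrin carry, had 16 of 24 tested members negative with 9 libraries (median −0.08) and 9 of 24 with 7 (median 0.03). Hs6st2, a heparan sulfate 6-O-sulfotransferase, differed by −0.88 ± 0.40 with 9 libraries and −0.83 ± 0.48 with 7. Its highest libraries were LYT004 and LYT005 (233 and 224 normalised counts) and LYT008 (93.1), with 15.6 to 64.2 in the other 6. The linker enzyme B3gat3 differed by 0.42 ± 0.19 and 0.21 ± 0.13. Hs6st3, with 1.80 to 19.6 normalised counts, differed by 0.31 ± 0.15 and 0.48 ± 0.13 (limma adjusted p = 0.649 and 0.545), and its groups did not overlap with 7.

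Of 15 genes for folding, secretion and crosslinking of collagen IV, 9 were negative with 9 libraries (median −0.03) and 10 with 7 (median −0.04). Plod1, a lysyl hydroxylase, differed by 0.23 ± 0.12 and 0.27 ± 0.12, and Sec23a, a COPII coat subunit needed for collagen export, by −0.32 ± 0.16 and −0.13 ± 0.08. The labelled groups of Sec23a did not overlap in either fit. Its YAP-deleted libraries had 1375, 1535, 836 and 1497 normalised counts, and the lowest control library had 1555.

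Cell surface heparan sulfate proteoglycans had 6 of 9 tested members negative with 9 libraries and 5 of 9 with 7 (medians −0.06 and −0.02). The glypican Gpc6 differed by −0.82 ± 0.35 and −0.40 ± 0.17, with 703 normalised counts in LYT013 and 2121 to 4320 in the other 8. The syndecan Sdc1 differed by −0.47 ± 0.32 and −0.53 ± 0.40. The glypican Gpc3 differed by −0.17 ± 0.28 with 9 libraries and −0.60 ± 0.15 with 7 (limma adjusted p = 0.841 and 0.532), and its groups did not overlap with 7. Its highest library was LYT013, with 161 counts.

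Among 14 tested receptors and ligands of these proteins, 12 were negative with 9 libraries (median −0.17) and 11 with 7 (median −0.19). The collagen-binding integrin chains Itga1 and Itga2 differed by −0.38 ± 0.16 and −0.66 ± 0.26 with 9 libraries, and by −0.35 ± 0.16 and −0.51 ± 0.30 with 7. Dag1, the dystroglycan receptor of laminin, agrin and perlecan, differed by −0.33 ± 0.15 and −0.24 ± 0.10 (limma adjusted p = 0.649 and 0.757). Its control libraries had 9796 to 11958 normalised counts, and its YAP-deleted libraries 9326, 10144, 6542 and 9473, lowest in LYT013, and the groups did not overlap with 7 libraries. The other 3 collagen IV chains, Col4a3, Col4a4 and Col4a6, differed by −0.01 ± 0.19, −0.21 ± 0.18 and −0.19 ± 0.24 with 9 libraries, and by 0.10 ± 0.13, −0.01 ± 0.15 and −0.06 ± 0.24 with 7.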

How the data were processed

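RNA of sorted stellate cells was sequenced in 9 libraries (5 control, 4 YAP-deleted by title). The deposited table holds log2-like values whose form is that of a variance-stabilising transformation. The sources used here do not state how it was made. The submitters' processing notes name bcl2fastq 2.20, kallisto 0.44.0, sleuth, GRCh38, GRCm38 and mm10, with no role or order. Columns were matched to titles by library code (LYT013 is headed LYT013.1). The labels' protocols describe poly-A and ribosomal depletion preparations and assign neither to a library.

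Inverting the values gave whole counts within 0.1 for 100% of values. Genes above the lowest value of the table in at least 4 of 9 or 3 of 7 libraries were tested with limma 3.58.1 in R 4.3.3 (group term, mean-variance trend, Benjamini-Hochberg at 0.05), a procedure tested on simulated data. The simulated counts had the same dispersion for every gene and held no library against its label. They do not show how the procedure performs with such libraries. Differences are on the log2-like scale, which understates changes at low counts. Levels per kb used the longest protein-coding transcript of GENCODE M21 on GRCm38, which 99.4% of names matched. The 2 names listed more than once were left out. Partner genes named are the 2 with the smallest p per list and fit, and genes of like pattern the 3 closest to each of the 7. Members, lists and tests were chosen with earlier results of these data known. The subtraction of length and GC dependence was added after seeing the data.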

Additional observations from a re-analysis of the deposited data

Results flagged for a closer look

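A library stood apart from its group (gap to its neighbour over the range above Dixon's 95% value) in 5 of 36 groups examined. Chance gives about 1 in 20 for independent groups. The groups examined share the same libraries and include Yap1, so the count cannot be weighed against that rate. LYT014 stood apart for Yap1 among control libraries at 9.41, and LYT013 among YAP-deleted libraries at 11.34 (deposited values). Both Yap1 flags restate the Yap1 levels by which LYT013 and LYT014 had already been set apart, and are not separate findings. For Agrn, LYT014 stood apart among control libraries at 12.11, where the other 4 had 12.51 to 12.58. LYT013 stood apart among YAP-deleted libraries for the portal fibroblast and mesothelial marker mean (6.91), and LYT008 for the cycling marker mean (10.31).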

How the results depend on the processing

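None of the 7 genes passed under any of 26 alternatives with 9 libraries or 21 with 7, and Col4a1 and Col4a2 kept a negative difference in all of them. No paired analysis was possible because the labels do not pair control with YAP-deleted libraries. With 9 libraries and array weights, 3 of the 7 were negative, the median was 0.040, and Col4a5 (0.15), Col15a1 (0.16), Col18a1 (0.10), Hspg2 (0.040), Col4a6 (0.055) and Col4a3 (0.14) changed sign, as did Col18a1 with the cycling mean (0.14). Col4a3 also did with quantile normalisation (0.025), equal medians (0.01) and length and GC subtracted (0.19, with Col4a4 at 0.012). In codes 4 to 8 alone 2 genes were called (none of the 7 and none of the partner genes named), and the signs of Col4a4 (0.12) and Col4a3 (0.16) changed without either passing. In codes 13 to 17 alone the sign of Gpc3 changed (0.23). Without both LYT013 and LYT014, 12 genes were called, with Col4a5 at 0.025, Col15a1 at 0.039 and Col4a3 at 0.10.

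With 7 libraries, array weights gave 3 of the 7 negative, a median of 0.11, Col18a1 at 0.13, Hspg2 at 0.11 and Col4a6 at 0.060. The code range as a term gave 25 genes called, a median of −0.19, Col4a5 at −0.15 and Col15a1 at −0.19. The cycling mean gave 39 genes called, 3 of the 7 negative, a median of 0.056, Col18a1 at 0.14, Hspg2 at 0.056 and Col4a4 at 0.0024. The macrophage mean gave 26 genes called, 3 negative, a median of 0.084, Col18a1 at 0.17 and Hspg2 at 0.084. Col4a4 was 0.020 with quantile normalisation or equal medians and 0.068 with length and GC subtracted.

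Leaving out each library of the 9 in turn gave 4 to 7 negative members, medians of −0.47 to −0.00025 (without LYT013), and −0.92 to 0.055 for Col4a5, −0.93 to 0.059 for Col15a1, −0.23 to 0.0012 for Agrn, −0.34 to 0.00708 for Col4a6, −0.11 to 0.18 for Col4a3 and −0.50 to 0.013 for Gpc3. Of the 7, it gave 2 to 11 genes called (2 without LYT006, 3 without LYT016, 5 without LYT017, 6 without LYT004, 7 without LYT008), 3 to 7 negative members, medians of −0.33 to 0.10, and −0.26 to 0.40 for Col4a5, −0.36 to 0.48 for Col15a1, −0.51 to 0.17 for Col18a1, −0.24 to 0.12 for Hspg2, −0.13 to 0.066 for Col4a4 and −0.20 to 0.15 for Col4a6. The causes were not tested. Depth limits none of the 7 genes, whose lowest recovered count was 182, but Col4a3 and Hs6st3 lay near the lowest value of the table.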
